A study of Mus musculus with 17 samples.

Results

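H3K27ac, the acetylation of histone H3 at lysine 27, was compared between spermatogenic cells with and without BRG1, and the autosomal regions of the comparison are described here. They comprised every region on chromosomes 1 to 19 in the 3 H3K27ac lists of the authors, 169104 of the 171905 regions in those lists and of the 193555 regions in all 5 lists of the series. Of these, 167381 were common to both genotypes, 955 were gained in the knockout and 768 were lost in it. The libraries came from P12 (postnatal day 12) testes of Brg1WT mice and of Brg1cKO mice, in which Brg1 was removed conditionally with Mvh-cre, both on a mixed strain background. There were 2 H3K27ac libraries per genotype and 1 input library shared with another histone mark. BRG1 peaks at P12, used below as a second readout, came from 2 libraries of wild type CD1 mice, a different strain background.

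H3K27ac is written by the acetyltransferases p300 and CBP and is found at active promoters and enhancers, where acetylated nucleosomes flank open DNA. BRG1 is an ATPase of the SWI/SNF complex, which slides and evicts nucleosomes and is often bound at such elements. Mvh-cre is driven by the Mvh promoter, which is active in germ cells, so any somatic testis cell left in the preparation keeps Brg1. The cells were enriched by digestion and sieving, and the lists carry no expression value with which their identity could be checked. Deletion of Brg1 in the libraries cannot be read from these lists either.

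Almost every autosomal H3K27ac region was common to both genotypes. Gained regions made up 0.565% and lost regions 0.454% of the 169104, and they covered 0.139 and 0.111 Mb against 53.8 Mb for common regions. Gained regions outnumbered lost ones 1.24 to 1 (95% interval 1.13 to 1.37), and they made up 55.4% (53.0 to 57.8) of the 1723 changed regions. Divided by the length from the first to the last common region of each autosome, which leaves 1 lost region outside, all common regions came to 69.4 per Mb, gained regions to 1 in 2524 kb and lost regions to 1 in 3138 kb. The classes are calls of the authors, with no value per library, and how the libraries of a genotype entered them is not stated. Every interval below is an exact 95% interval that covers counting error only, no test over samples was possible, and regions are not replicates.

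The deposited regions that changed were narrow. The median width was 150 bp (142 to 158) for gained, 145 bp (133 to 154) for lost and 271 bp (271 to 272) for common regions. The change in shape lay at 200 bp, a width at which all 3 lists peaked. Widths of 200 to 224 bp took in 15.8% of gained, 14.6% of lost and 16.2% of common regions. Below 200 bp lay 69.4% (66.4 to 72.3) of gained and 72.0% (68.7 to 75.2) of lost regions, but 11.3% (11.2 to 11.5) of common ones. Widths of 1 to 49 bp, well short of a nucleosome, were found in 16.0% of gained, 17.3% of lost and 1.11% of common regions. Among regions of at least 200 bp the classes still differed, with medians of 223, 224 and 288 bp for gained, lost and common regions. The intervals of gained and lost regions overlapped for widths below 200 bp, for widths of 1 to 49 bp and for the medians from 200 bp up. Whether regions below 200 bp are whole calls or parts of longer ones is not known from the lists, so their width is that of the deposited region and not necessarily of the acetylated stretch.

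**Figure D1:**
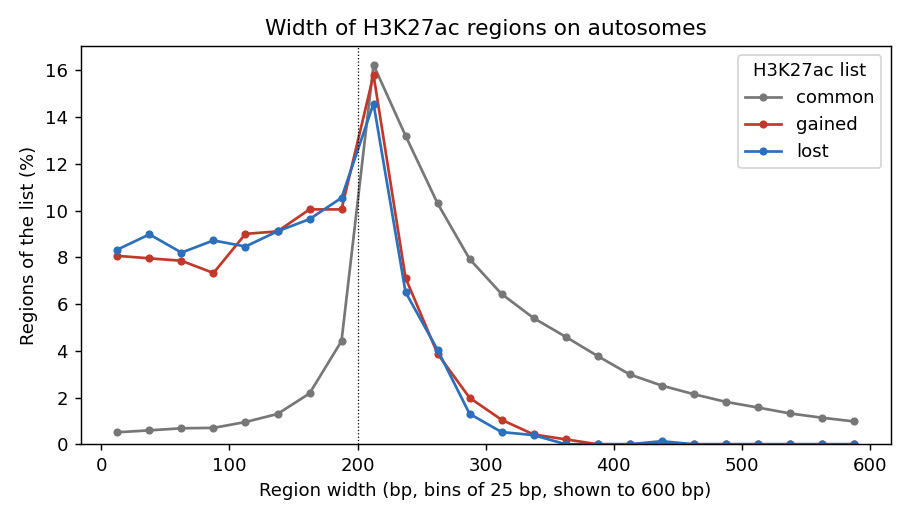
Width of autosomal H3K27ac regions in bins of 25 bp up to 600 bp (x axis, bp) as a share of each list (y axis, %), with a dotted line at 200 bp. All 3 lists peak just above 200 bp, gained and lost regions run at a level share below it (69.4% and 72.0% in all), and common regions extend above it.

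Broad regions were nearly all common. Regions of 500 bp or more came to 18933 common regions (11.3%), 1 gained region and 4 lost ones. The widest common regions stood far apart from the rest. The widest spanned 50609 bp of chromosome 9, from 13167320 to 13217928. The second spanned 39621 bp of chromosome 6, from 47596490 to 47636110, and the third 14550 bp of chromosome 5, from 26421182 to 26435731. The next in order measured 4177 bp. Of the 3, the one on chromosome 6 overlapped a P12 BRG1 peak, and those on chromosomes 9 and 5 lay 336 and 23.7 kb from one.

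The few broad changed regions had contrasting surroundings. The widest gained region, of 1721 bp on chromosome 6 at 19972501 to 19974221, had 7 common regions within 500 kb on either side. The next widest measured 369 bp on chromosome 5 at 86932060 to 86932428, with 31 common regions around it, and 364 bp on chromosome 18 at 5790563 to 5790926, with 88. They lay 301 and 28.7 kb from a BRG1 peak, in that order. Of the 3 widest lost regions, the first, on chromosome 2 at 25995196 to 25996449, lay in a neighbourhood of 197 common regions and overlapped a P12 BRG1 peak. The second, on chromosome 3 at 75360501 to 75361713, also overlapped a BRG1 peak but had 31 common regions around it, the nearest of them 19 bp away. The third, on chromosome 14 at 8462485 to 8463692, had 81 and lay 45 bp from a common region. A 4th lost region over 1 kb, on chromosome 17 at 58681001 to 58682173, had 9 and was named after its values were seen. It lay 1262 kb from a BRG1 peak. Over all autosomes, 9 lost (1.17%) and 13 gained regions (1.36%) overlapped or touched a BRG1 peak. The median number of common regions within 500 kb on either side was 107 for lost and 86 (80 to 92) for gained regions. The lost region on chromosome 2 lay above the median of its class. The gained one on chromosome 18 lay just above its own, inside the interval. The others named here lay below.

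The common list was dense and clustered, and the changed regions were scattered between its members. Neighbouring common regions were separated by a median gap of 4.00 kb (3.96 to 4.04), and 35.9% of them had another within 1 kb. No 2 common regions lay closer than 101 bp. Neighbouring gained regions were a median of 1476 kb apart (1326 to 1653) and neighbouring lost regions 1593 kb (1372 to 1856). Within 1 kb of another region of their own list lay 6 gained and 10 lost regions.

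Some neighbouring common regions were parts of 1 named call. In the common list 15972 regions (9.54%) shared a name with another, in 7537 names, with gaps of 101 to 7671 bp and a median of 183 bp between the parts. Regions that shared a name were 310 bp wide at the median, against 269 bp for the others. The gained and lost lists held 4 such regions each, with gaps of 171 to 189 and 150 to 204 bp. The names carry the mark ko1 throughout the gained list, wt1 throughout the lost list and wt2_ko2 throughout the common list. What these marks stand for is not stated in the labels or the lists.

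Changed regions lay a few kb from stable acetylation. Over all autosomes lost regions lay closer to it than gained ones, but in each bin of windows of like acetylation density, described below, the intervals of both medians overlapped. The median gap to the nearest common region was 4.20 kb (3.86 to 4.66) for gained and 3.04 kb (2.79 to 3.48) for lost regions, while common regions had another at 1.84 kb (1.82 to 1.86). Within 10 kb of a common region lay 72.5% (69.5 to 75.3) of gained and 81.6% (78.7 to 84.3) of lost regions. Within 1 kb the shares were 19.1% (16.6 to 21.7) and 23.4% (20.5 to 26.6), with overlapping intervals. Beyond 50 kb from any common region lay 49 gained regions (5.13%, 3.82 to 6.73) and 18 lost ones (2.34%, 1.39 to 3.68). No gained region touched a common one (0 of 955), 2 lost regions overlapped one by up to 138 bp and 2 more touched one. The lists are classes of 1 comparison, so this lack of overlap may be set by the classing, and no rate is read from it.

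**Figure D2:**
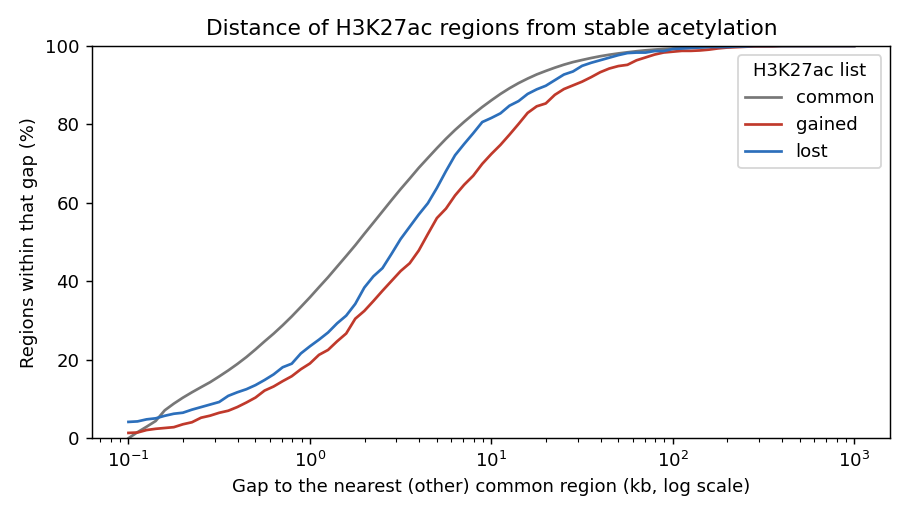
Share of regions (y axis, %) that lie within a given gap of the nearest common H3K27ac region (x axis, kb, log scale), for common regions the nearest other one. The lost curve runs between the common and the gained curves at 10 kb, where the shares are 86.1%, 81.6% and 72.5%.

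Few changed regions sat inside a stretch of stable acetylation. A common region on both sides within 1 kb was found for 17 gained (1.78%, 1.04 to 2.83) and 16 lost regions (2.08%, 1.20 to 3.36), and for 7.08% of common regions. The gap in the common list that held a changed region was 19.9 kb long (17.3 to 23.8) at the median for gained and 15.9 kb (13.7 to 17.6) for lost regions. A longer gap has more room for a region wherever regions fall. These lengths therefore cannot be set against the median gap of 4.00 kb between common regions. Width varied little with this distance. Gained regions were 160.5 bp wide (149 to 181) within 1 kb of a common region and 141 bp (128 to 153) beyond 10 kb, and lost regions 147.5 bp (123 to 174) and 151 bp (126 to 178).

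The balance of gain and loss changed with the density of stable acetylation. Autosomes were tiled into 2422 windows of 1 Mb, and the windows were ordered by their number of common regions and split into 5 bins of 484 or 485. In the sparsest bin, with 0 to 14 common regions per window, gained regions made up 68.8% (57.3 to 78.9) of the changed regions, 53 against 24. The share was 66.2% (58.4 to 73.5), 60.8% (55.5 to 65.8) and 57.9% (53.4 to 62.2) in the next 3 bins. In the densest bin, with 118 to 398 common regions per window, it was 45.9% (41.9 to 49.9), 285 gained against 336 lost. The intervals of the sparsest and the densest bin did not overlap, with 1 exception. In the 50% of changed regions with the highest deposited score the shares were 59.5% (42.1 to 75.2) and 44.6% (38.8 to 50.6). Whether a high score marks a stronger or a weaker call is not stated. Both classes were rare in sparse windows when counted per window. Lost regions became more frequent in each bin, from 0.0495 to 0.694 per window, while gained regions went from 0.109 to 0.601 per window in the 4th bin and were at 0.589 in the 5th. Per 1000 common regions, the number by which the bins were ordered, the sparsest and the densest bin held 16.3 and 3.35 gained and 7.38 and 3.95 lost regions.

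**Figure D3:**
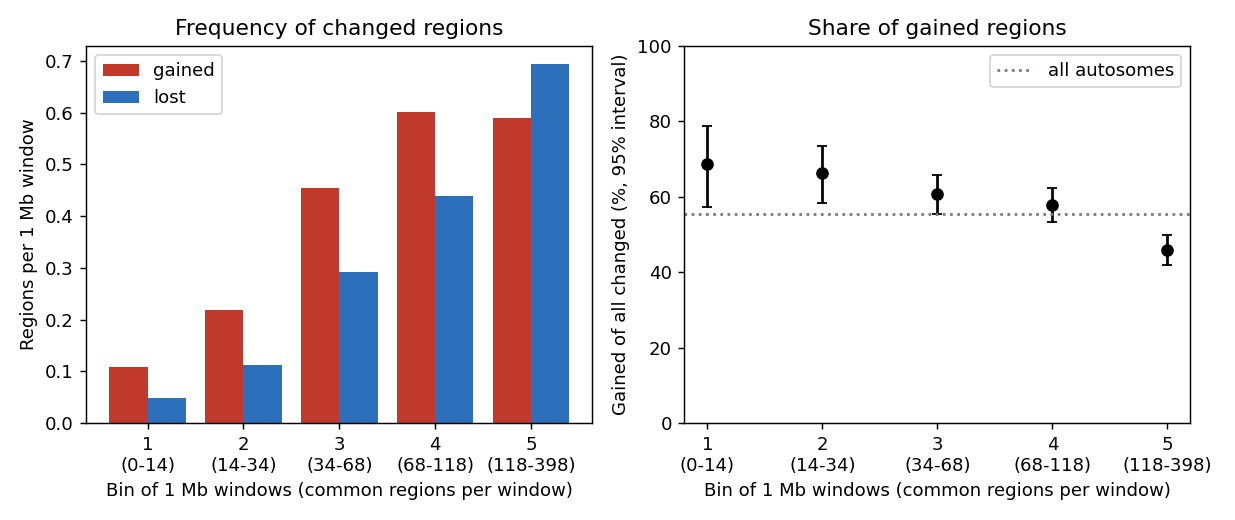
Gained and lost H3K27ac regions in 5 bins of 1 Mb windows ordered by their number of common regions (x axes, range per window in parentheses). On the left, bars give regions per window. On the right, points give the share of gained regions among changed ones with exact 95% intervals, from 68.8% in bin 1 to 45.9% in bin 5, and the dotted line is the 55.4% of all autosomes.

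The densest bin held 43.8% (40.2 to 47.3) of lost, 29.8% (26.95 to 32.9) of gained and 50.8% of common regions. The 3 sparsest bins together held 39.7% (36.6 to 42.9) of gained regions, 28.6% (25.5 to 32.0) of lost and 23.1% of common ones. Counted around each region rather than in windows, common regions within 500 kb numbered 86 (80 to 92) at the median for gained, 107 (102 to 114) for lost and 121 (121 to 122) for common regions. Within the bins, the median gaps of gained and lost regions to common ones did not differ in 1 direction. The median gap was 2.18 kb (1.77 to 2.68) for gained and 2.21 kb (1.86 to 2.75) for lost regions in the densest bin. It was 3.48 kb (2.87 to 4.58) and 3.16 kb (2.56 to 3.97) in the 4th. In the 3rd it was 6.10 kb (4.89 to 8.66) and 4.78 kb (3.84 to 5.70). In the 2nd it was 8.81 kb (6.89 to 12.8) and 13.1 kb (2.86 to 18.5). In the sparsest it was 35.3 kb (16.4 to 57.8) and 30.9 kb (8.52 to 73.3). Within 1 kb of a common region lay 30.2% (24.9 to 35.9) of gained and 28.0% (23.2 to 33.1) of lost regions of the densest bin. In every other bin this share was higher for lost regions, with overlapping intervals in each. Gained and lost shares were 20.6% and 23.1% in the 4th bin, and 13.2% and 16.9% in the 3rd. In the 2nd they were 3.77% (1.04 to 9.38) and 18.5% (9.25 to 31.4). In the sparsest bin 3 of 53 gained and 3 of 24 lost regions lay this close. The 19 windows without a common region held no gained and no lost region.

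Gained and lost regions were both more frequent on autosomes where common regions were dense. Across the 19 autosomes, each a single point with its own size and composition, the number per Mb correlated with that of common regions at r = 0.63 (rho = 0.65) for gained and r = 0.72 (rho = 0.62) for lost regions. Gained regions outnumbered lost ones on 16 autosomes. The exceptions were chromosome 7 with 54 gained and 58 lost, chromosome 11 with 53 and 61, and chromosome 18 with 34 and 35. Chromosome 11 had the densest common regions, at 111 per Mb. The gained share of changed regions ran from 46.5% (37.1 to 56.1) on chromosome 11 to 63.3% (49.9 to 75.4) on chromosome 15. No autosome had an interval that left out the 55.4% of all of them together.

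**Figure D4:**
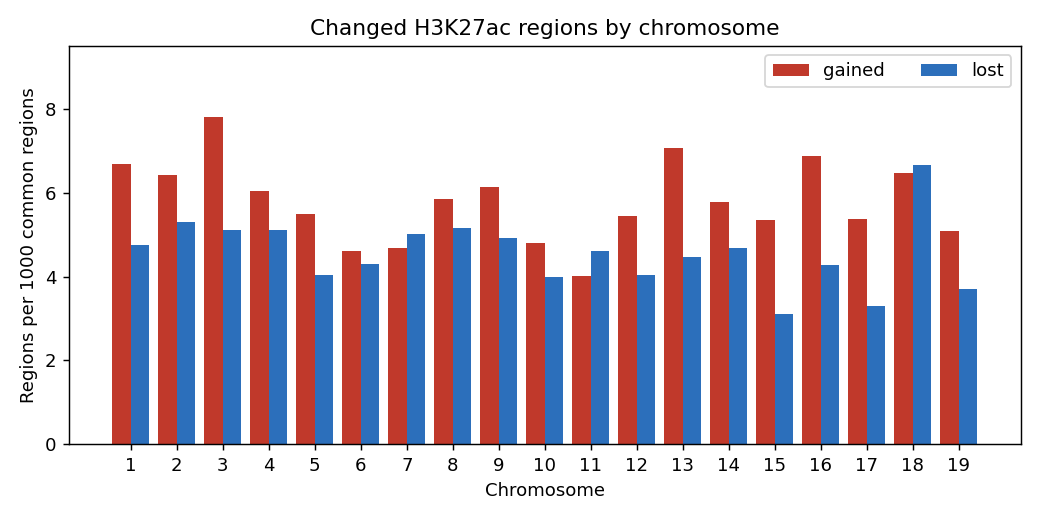
Gained and lost H3K27ac regions per 1000 common regions (y axis) on each autosome (x axis). Gained bars are higher than lost bars on all autosomes but 7, 11 and 18, and gained regions are most frequent by this measure on chromosome 3, at 7.80, and least on chromosome 11, at 4.01.

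Along the chromosomes, gained regions were spread more evenly than common ones. Each chromosome was measured from its first to its last common region and split into 10 equal parts. The last 2 parts held 13.9% and 13.8% of common regions and 15.2% and 13.9% of lost regions, against 10.9% and 11.9% of gained ones. The first 5 parts together held 46.1% (42.9 to 49.3) of gained, 41.7% (38.2 to 45.2) of lost and 41.7% (41.4 to 41.9) of common regions. The gained and lost intervals overlapped, and the gained share in these parts was above the lost share on 9 of the 19 autosomes. Within the density bins both parts of the chromosomes gave similar balances. In the densest bin gained regions made up 48.3% (41.7 to 54.9) of changed regions in the first 5 parts and 44.5% (39.5 to 49.6) in the last 5.

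Some windows held both gained and lost regions, more held 1 class alone and most held neither. Of the 2422 windows, 245 (10.1%) held both classes, 520 (21.5%) gained regions without lost ones and 369 (15.2%) the reverse. The other 1288 (53.2%) held neither. With classes this sparse, the number of windows with 1 class alone does not show that the classes lie apart. A gained region was present in 39.9% (36.0 to 43.9) of windows with a lost one and in 28.8% (26.7 to 30.9) of windows without. Both classes were more frequent where common regions were dense, and within the density bins the share was higher beside a lost region in 2 of 5 bins. In the densest bin the shares were 42.9% (36.5 to 49.5) with and 45.8% (39.5 to 52.2) without a lost region, and in the 4th bin 52.9% (45.2 to 60.5) and 43.5% (38.0 to 49.3). Across windows, which share the density of common regions, the counts of gained and lost regions correlated weakly (r = 0.12, rho = 0.11).

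The class of the nearest changed region was close to the make-up of the lists. It was gained for 58.5% (55.3 to 61.7) of gained regions, where 55.4% of the other changed regions were gained. It was lost for 49.0% (45.4 to 52.6) of lost regions, where 44.5% of the others were lost. These intervals treat regions as independent, though neighbours can be each other's nearest and some are parts of the same named call. The interval for lost regions left out the share of lost regions among the others by a small margin. The interval for gained regions held its own. This margin did not last under every alternative. The value for lost regions was 45.1% (40.0 to 50.2) in the highest scoring 50% of changed regions, 47.4% (43.5 to 51.4) in regions of at least 50 bp and 47.7% (44.0 to 51.5) without chromosome 4, and each of these intervals held the share of lost regions among the others (44.5%, 44.2% and 44.4%). With regions within 1 kb merged, the interval for lost regions still left the share out (48.2%, 44.6 to 51.8, against 44.5%). With each of the 19 autosomes left out in turn, it held the share for 1 alone, chromosome 4. For gained regions, the interval held the share with 13 of the 19 autosomes left out in turn and left it out without chromosome 2, 6, 7, 13, 15 or 19.

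The mixed share was lowest at short range, where pairs are few. Of the 1704 pairs of neighbouring changed regions, 790 (46.4%, 44.0 to 48.8) were made of 1 gained and 1 lost region. Among the 96 pairs less than 50 kb apart, 34 were mixed (35.4%, 25.9 to 45.8). All 8 pairs under 1 kb were of like class, 3 gained and 5 lost, which leaves a mixed share of up to 36.9% possible at this count, and 2 of the gained and 2 of the lost pairs were parts of 1 named call. From 50 to 100 kb the mixed share was 54.9% (43.5 to 65.9) of 82 pairs, and beyond 1000 kb it was 44.3% (40.7 to 48.1) of 715.

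**Figure D5:**
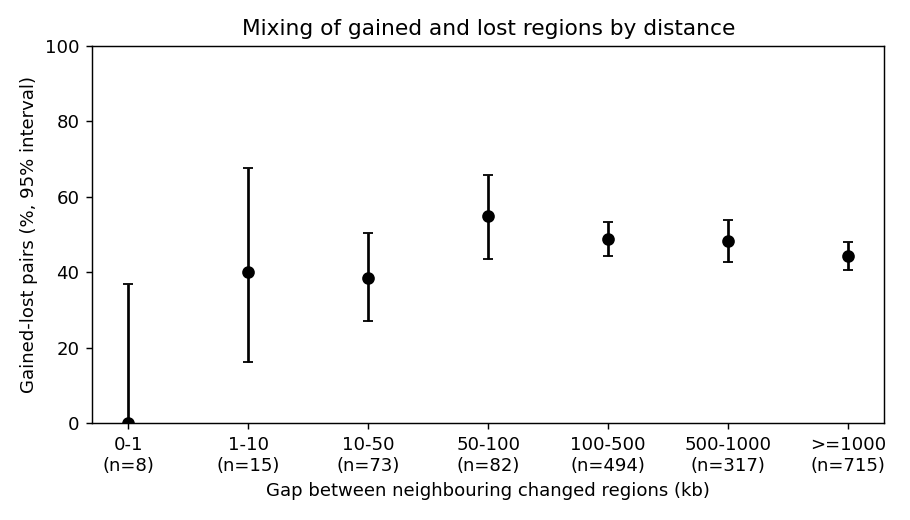
Share of neighbouring changed regions that form a pair of 1 gained and 1 lost region (y axis, %, points with exact 95% intervals) by the gap between them (x axis, kb, with the number of pairs). No pair under 1 kb is mixed (0 of 8), and from 50 kb on the shares lie between 44.3% and 54.9%.

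No gained and lost region lay within 1 kb of each other. The closest pair was on chromosome 13, a lost region of 308 bp at 28772021 to 28772328 and a gained one of 41 bp at 28774428 to 28774468, 2099 bp apart and each over 2 kb from a common region. The second was on chromosome 9, with a lost region at 103227975 to 103228086 and, 4583 bp away, a gained one of 2 bp at 103232670 to 103232671. The third pair joined a gained region on chromosome 2 at 71190957 to 71191036 to a lost one at 71198384 to 71198594. The 4th lay on chromosome 8 (gained 90141958 to 90142145, lost 90134084 to 90134182) and the 5th on chromosome 11 (gained 80505667 to 80505799, lost 80514754 to 80514972). In these 10 regions the nearest P12 BRG1 peak was between 6.65 and 87.0 kb away.

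Larger groups of changed regions were few. With regions chained at gaps of up to 50 kb, 1536 of the 1723 stood alone, and the remaining 187 formed 91 clusters, 32 of gained regions, 26 of lost regions and 33 mixed. The largest cluster lay on chromosome 7 at 126902790 to 126987280 and held 2 gained regions followed by 2 lost ones over 84.5 kb, with 7 common regions and 1 P12 BRG1 peak between them. A mixed cluster on chromosome 8 at 90134084 to 90191178 placed a gained region between 2 lost ones. A further mixed cluster was the pair on chromosome 2 at 71190957 to 71198594.

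Another region of the same list lay within 50 kb of 6.91% (5.38 to 8.71) of gained and 7.29% (5.55 to 9.36) of lost regions. Clusters of 3 of 1 class were very few, and were found among lost regions but not among gained ones. One, on chromosome 2 at 38180795 to 38206691, held 4 BRG1 peaks in 25.9 kb. Its other members, at 38206269 to 38206497 and 38206670 to 38206691, lay on both sides of a common region and each overlapped a BRG1 peak. The other, on chromosome 6 at 125640351 to 125698389, held no BRG1 peak, and its members lay at least 195 kb from one. The third lost cluster by rank had 2 members, on chromosome 1 at 23931463 to 23933361. Clusters of gained regions had 2 members at most, as in the stretches of chromosome 1 from 67073495 to 67122008 and from 75410028 to 75417801, and in that of chromosome 2 from 124884349 to 124886457.

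The window with most gained regions, on chromosome 4 at 153000001 to 154000000, held 5 of them, no lost region, 99 common regions and 12 P12 BRG1 peaks. The most lost regions in a window were 4, found in 3 windows. In a window of chromosome 1, from 93000001 to 94000000, and in another of chromosome 2, from 28000001 to 29000000, these came without a gained region. In the remaining window, from 38000001 to 39000000 of chromosome 2, they came with 3 gained ones, and this window held the most changed regions of any mixed window, 7, beside 123 common regions and 21 BRG1 peaks.

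By median gap, BRG1 in wild type cells was nearest to common, then to lost, then to gained regions. The median gap to a P12 BRG1 peak was 19.6 kb (19.4 to 19.9) for common, 29.0 kb (25.9 to 33.8) for lost and 41.8 kb (37.7 to 47.8) for gained regions. A BRG1 peak overlapped or touched 1.17% (0.537 to 2.21) of lost and 1.36% (0.727 to 2.32) of gained regions, against 9.06% of common ones. At the peaks themselves, lost regions were thus not ahead of gained ones. BRG1 peaks were also denser where common regions were dense, so the classes were set side by side within the density bins. In the densest bin a BRG1 peak lay within 10 kb of 36.1% (30.6 to 42.0) of gained, 35.7% (30.6 to 41.1) of lost and 49.2% of common regions. In the 4th bin the shares were 19.2% (14.9 to 24.3), 22.2% (16.8 to 28.4) and 28.6%. In the 3 sparsest bins, from the sparsest up, they were 1.89%, 5.66% and 13.6% for gained and 4.17%, 14.8% and 16.2% for lost regions. Common regions there had 5.08%, 13.8% and 21.5%. The share was thus lower for gained than for lost regions in every bin but the densest, with overlapping intervals in each. At 1 kb, where BRG1 lay beside 32 of 336 lost (9.52%, 6.61 to 13.2) and 18 of 285 gained regions (6.32%, 3.79 to 9.80) of the densest bin, the intervals overlapped as well, and the share was 18.1% for common regions. In the other 4 bins together these shares were 4.17% (2.49 to 6.51) of 432 lost and 1.79% (0.929 to 3.11) of 670 gained regions, against 9.60% of common ones.

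Of the 50 lost regions with BRG1 within 1 kb, 34 (68.0%, 53.3 to 80.5) also had a common region within 1 kb, close to the 69.0% of such common regions and within the interval of gained ones (53.3%, 34.3 to 71.7). Within 1 kb of a common region, 34 of 180 lost regions (18.9%, 13.5 to 25.4) had a BRG1 peak within 1 kb, against 16 of 182 gained regions (8.79%, 5.11 to 13.9) and 26.7% of common regions. Farther from common regions the counts were 16 of 588 lost (2.72%) and 14 of 773 gained (1.81%), against 6.72% of common regions. The common region nearest to a lost one, where this was within 1 kb, itself carried a BRG1 peak in 27 of 180 cases (15.0%, 10.1 to 21.1), and in 12 of 182 cases for gained regions (6.59%, 3.45 to 11.2). At any distance, the nearest common region carried a BRG1 peak for 8.07% (6.25 to 10.2) of lost and 5.97% (4.55 to 7.66) of gained regions, and 9.06% of all common regions did. The BRG1 libraries came from another strain background than the H3K27ac libraries.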

How the data were processed

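The H3K27ac lists were made from 2 Brg1WT and 2 Brg1cKO libraries, per the labels, and chromatin was digested with micrococcal nuclease after fixation in 0.3% formaldehyde. Bowtie, Bowtie2, SAMtools, Picard, deepTools 2.5.2 and MACS2 are named with build mm9 in the submitters' processing notes, with no role or order. The sources used here do not state how replicates entered the calls, the thresholds or the read depth. The score deposited by the authors, a large negative number for every gained and lost region, has no stated scale and ranked regions for 1 alternative alone. Start and end of regions and of P12 BRG1 peaks were used as deposited, in mm9, and are printed counted from 1.

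Regions on X and Y (2756 common, 28 gained, 17 lost) were left out. Gaps run between region edges, and touching or overlapping regions have a gap of 0. Common regions around a region, and regions in a window, were counted by their centres. Shares carry Clopper-Pearson 95% intervals and medians carry order-statistic 95% intervals. Named regions are the 3 widest of each list, the 5 closest gained and lost pairs, the 3 largest clusters of each kind and the 1 Mb windows with most gained or lost regions. Alternatives were a minimum width, the highest scoring 50%, merging, each autosome left out and other distances. Python 3.11.15, numpy 2.4.6, pandas 2.3.3 and scipy 1.17.1 were used, and the interval code was tested on simulated data. The members, rules and lists were chosen with earlier results of these data known. No mm9 gene annotation or sequence was used here, so regions carry no gene name.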

Additional observations from a re-analysis of the deposited data

How the results depend on the processing

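No paired analysis was possible because the lists give no value per library, and for the same reason no library could be left out. Of 82 values under alternatives, 61 stayed within the 95% interval of the reported value and 21 moved outside it. A reversal was looked for in the ratio of gained to lost regions alone, where gained regions outnumbered lost ones under each alternative. The balance of gain and loss by density was examined with alternatives chosen after seeing the data. With each autosome left out in turn, the gained share was between 67.1% and 72.0% in the sparsest bin and between 45.3% and 48.1% in the densest. With the highest scoring 50% of changed regions, by a score of unstated direction, it was 59.5% (42.1 to 75.2) and 44.6% (38.8 to 50.6), intervals that overlap. Windows of 500 kb gave 66.7% and 48.6%, and windows of 2 Mb gave 71.1% and 43.8%.

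With regions of at least 50 bp, median widths were 273 bp for common, 171 bp for gained and 168 bp for lost regions, and 2.57% of changed regions lay in mixed clusters against 4.00% as deposited. In the highest scoring 50% the medians were 161 bp for gained and 157 bp for lost regions, 1.62% lay in mixed clusters, and 45.1% of lost regions had a nearest changed region of their class. The ratio of gained to lost regions in that set is fixed by its construction. Merging within 1 kb gave a common width of 293 bp and 71 common regions around gained and 87 around lost ones. Within 100 kb these numbers were 18 and 23, and within 1000 kb 163 and 204.5. A gap of 0 kb to a common region was found for 0% of gained and 0.521% of lost regions, and a gap of up to 10 kb for 72.5% and 81.6%. Chaining at 10 kb put 0.696% of changed regions in mixed clusters and chaining at 100 kb 9.52%. These last changes follow from the distance chosen or from the number of regions left.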

Other observations

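Of the 5 changed regions of at least 1 kb, 3 had a start that was a multiple of 500 in the deposited coordinates, counted from 0. These were the widest gained region on chromosome 6 and the lost regions on chromosomes 3 and 17. Among all gained regions 0.209% and among all lost regions 0.260% had such a start. This was noticed after the values were seen and was not tested.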
